A study of Homo sapiens with 6 samples.

Results

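The genes described here are YAP1 and WWTR1, the DNA-binding factors TEAD1 and TEAD4, and 6 genes used as their readouts or known as their regulators, CYR61, CTGF, ANKRD1, AMOTL1, AMOTL2 and LATS2. They were taken by symbol from the authors' table of 19830 genes, and all 10 had a row. The cells were PANC-1, a human pancreatic ductal adenocarcinoma cell line. They had received 25 nM of SOX9 siRNA (2 libraries) or 25 nM of control siRNA (2 libraries) by lipid transfection in multi-well plates, and were pooled and harvested 48 hours later. SOX9 is a DNA-binding protein that marks the progenitor and duct lineage of the pancreas. Per the labels' protocols, total RNA was made into stranded libraries and read in pairs of 100 bases, to at least 60000000 reads a library. The labels do not say that the 2 libraries of a group were separate cultures. Every p-value therefore sets a fold change against a spread between libraries, as the authors' model estimates it, that may be only technical. All cells are of 1 tumour line, and 1 SOX9 siRNA product was set against 1 control product. The series also has 2 ChIP-seq libraries for SOX9, not analysed here.

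YAP1 and WWTR1, whose protein is called TAZ, are the nuclear effectors of the Hippo pathway. When the kinases LATS1 and LATS2 are active they phosphorylate both proteins, which then stay in the cytoplasm or are degraded. When the kinases are inactive, YAP and TAZ enter the nucleus and bind TEAD factors, which carry them to DNA. Cell density, attachment and tension in the actin skeleton act on this switch, so the messenger RNA of YAP1 itself is a poor readout of its activity, and targets such as CYR61 and CTGF are read in its place. AMOTL1, AMOTL2 and LATS2 also restrain YAP, so that targets and inhibitors overlap in this pathway.

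The deposited values are 1 comparison per gene, with no value per library, so levels of single libraries and the overlap of the groups cannot be shown. The headers do not name the numerator. SOX9 itself had a negative value, and on that ground fold changes were read as SOX9 siRNA over control siRNA. It is therefore no check of the labels, and with the opposite reading all directions would turn. For SOX9 the authors' deposited table gives -0.84 as log2 fold change, 0.26 as standard error and 0.0643 as DESeq2 adjusted p, which did not pass the threshold of 0.05. A gene is called at an adjusted p under 0.05, over 14063 tested genes. The keratins KRT8, KRT18 and KRT19 of the labelled epithelial line had mean normalized counts of 99583 or more in the authors' deposited table. KRT8, KRT18 and KRT19 had log2 fold changes of 0.55, 0.50 and 0.50 with DESeq2 adjusted p-values of 0.0786, 0.106 and 0.259 in that table, the authors' deposited table, and their part in the results below was not tested. The leukocyte, endothelial and fibroblast genes PTPRC, PECAM1 and DCN had 2.28, 0.551 and 4.37 in the authors' deposited table. Other leukocyte and fibroblast markers were higher, with mean normalized counts there of 105 for ITGAM, 322 for COL3A1, 66.0 for DES and 32.0 for PDGFRB. Of 16 markers of those 3 cell types, 4 were tested and 0 were called by DESeq2 in the authors' deposited table, and also 0 passed an unadjusted p of 0.05. In bulk RNA, fewer cells that express a gene and less RNA of it per cell cannot be told apart.

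CYR61 fell in cells that received SOX9 siRNA, and it was the 1 called gene of the 10. Its level was 40.3% of control (95% interval 27.5% to 59.1%). CTGF and ANKRD1 had lower point estimates than CYR61, at 32.3% and 29.9% of control, but neither was called. The 4 coactivators and TEAD factors had point estimates between 75.2% and 93.7% of control, and none of the 4 was called. Among all tested genes, 0.939% were called lower, 0.868% higher and 1.81% in either direction, and the call of 1 in 10 is given beside these shares as a description. At an unadjusted p under 0.05, 4 of the 10 were lower, CYR61, CTGF, ANKRD1 and AMOTL1, and 0 were higher, against 6.15% lower and 4.98% higher of all tested genes. All 10 log2 fold changes were below 0, beside 52.1% of tested genes and 64.0% of the 3516 tested genes with the highest mean counts. The median of the 10 was -0.48, against -0.02 for all tested genes.

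**Figure D1:**
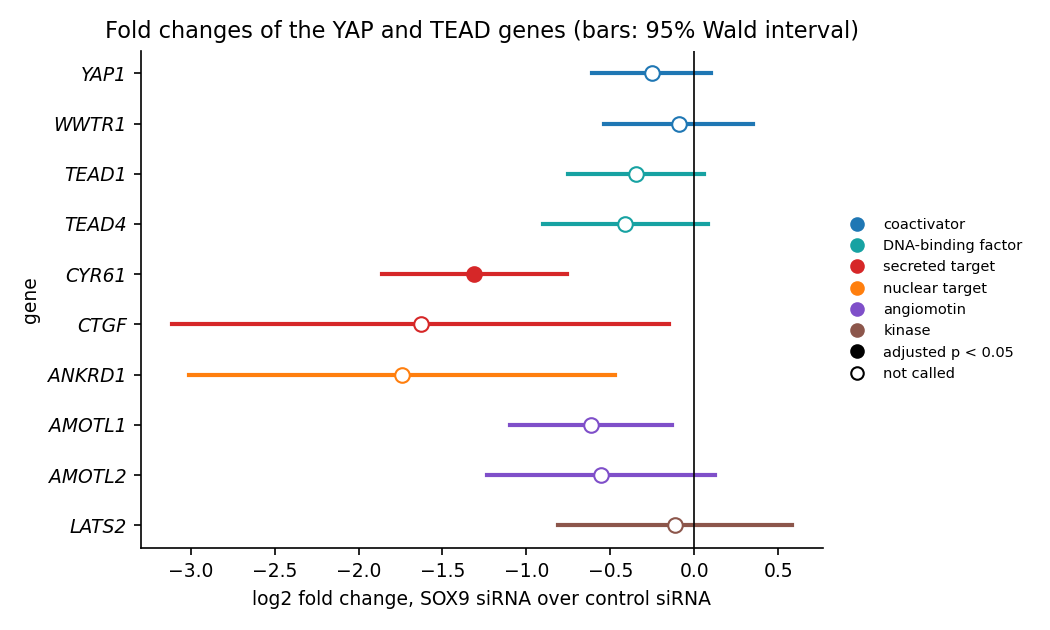
Log2 fold change of SOX9 siRNA over control siRNA for the 10 genes, in order of role, with 95% Wald intervals as bars. The filled point marks the gene with an adjusted p under 0.05. CYR61 at -1.31 is filled, and the intervals of CTGF and ANKRD1 reach further down but also nearer to 0.

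YAP1, the transcriptional coactivator restrained by the Hippo kinases, was not called. Its mean normalized count was 15669 in the authors' deposited table. From that mean and the fold change, its level was 14291 normalized counts in SOX9 siRNA cells and 17047 in control siRNA cells. For YAP1 the authors' deposited table gives a log2 fold change of -0.25, a standard error of 0.18 and a DESeq2 adjusted p of 0.678. The 95% interval ran from 65.5% to 107% of control, so a halving lies outside it.

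WWTR1, the paralogue that encodes TAZ, was also not called. Its implied level was 13791 normalized counts in SOX9 siRNA cells and 14723 in control siRNA cells. WWTR1 is listed in the authors' deposited table with a log2 fold change of -0.09, a standard error of 0.23 and a DESeq2 adjusted p of 0.959. The interval ran from 68.8% to 128% of control. The intervals of YAP1 and WWTR1 overlapped over most of their length.

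The TEAD factors supply the DNA binding that YAP and TAZ lack. TEAD1 had an implied level of 6987 normalized counts in SOX9 siRNA cells and 8883 in control siRNA cells. Its log2 fold change in the authors' deposited table was -0.35 with a standard error of 0.21 and a DESeq2 adjusted p of 0.567. TEAD4 had implied levels of 1692 and 2251 normalized counts in SOX9 siRNA and control siRNA cells. Its log2 fold change in the authors' deposited table was -0.41 with a standard error of 0.25 and a DESeq2 adjusted p of 0.582. The intervals of both reached just past 100% of control, from 59.3% to 104% for TEAD1 and from 53.4% to 106% for TEAD4. The other 2 family members measured, TEAD2 and TEAD3, were not called either, and the authors' deposited table gives them -0.00 and -0.31 as log2 fold changes.

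CYR61, now named CCN1, encodes a secreted matricellular protein of the CCN family that binds integrins. Its mean normalized count was 11253 in the authors' deposited table. The implied level was 6467 normalized counts in SOX9 siRNA cells and 16039 in control siRNA cells. In the authors' deposited table CYR61 had a log2 fold change of -1.31, a standard error of 0.28 and a DESeq2 adjusted p of 0.00143. It had rank 32 of all tested genes by p, and rank 14 from the lowest Wald statistic. Of the 1000 tested genes nearest to it in mean count, 1 had a lower log2 fold change. Its interval ran from -1.86 to -0.76 on the log2 scale. That interval did not overlap that of YAP1, from -0.61 to 0.10, or of WWTR1, from -0.54 to 0.35. The interval of TEAD1, from -0.75 to 0.06, began just past its upper end. The CYR61 interval overlapped those of TEAD4, AMOTL1, AMOTL2 and LATS2, whose lower ends were -0.90, -1.10, -1.24 and -0.81. It also overlapped those of CTGF and ANKRD1. The difference between genes was not tested, because their covariance across libraries is not in the table.

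CTGF, now CCN2, encodes a second secreted CCN protein, which promotes matrix deposition. The implied level was 2497 normalized counts in SOX9 siRNA cells and 7730 in control siRNA cells. Its log2 fold change in the authors' deposited table was -1.63, with a standard error of 0.75 and a DESeq2 adjusted p of 0.359. The interval was wide, from 11.6% to 90.0% of control. CTGF had the lowest log2 fold change of the 3516 tested genes with the highest mean counts, and 2 of the 1000 genes nearest in mean count had a larger standard error. With that standard error, a level of 17.6% of control or less would have been needed for a call.

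ANKRD1 encodes an ankyrin repeat protein of the nucleus and the muscle sarcomere, and it was weakly expressed. Its mean normalized count was 67.2 in the authors' deposited table. The implied level was 30.9 normalized counts in SOX9 siRNA cells and 103 in control siRNA cells. For ANKRD1 the authors' deposited table gives a log2 fold change of -1.74, a standard error of 0.65 and a DESeq2 adjusted p of 0.168. The interval ran from 12.4% to 72.0% of control. Of the 1000 tested genes nearest to ANKRD1 in mean count, 2 had a lower log2 fold change. The interval of CYR61 lay inside those of CTGF, from -3.11 to -0.15 on the log2 scale, and of ANKRD1, from -3.01 to -0.47.

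**Figure D2:**
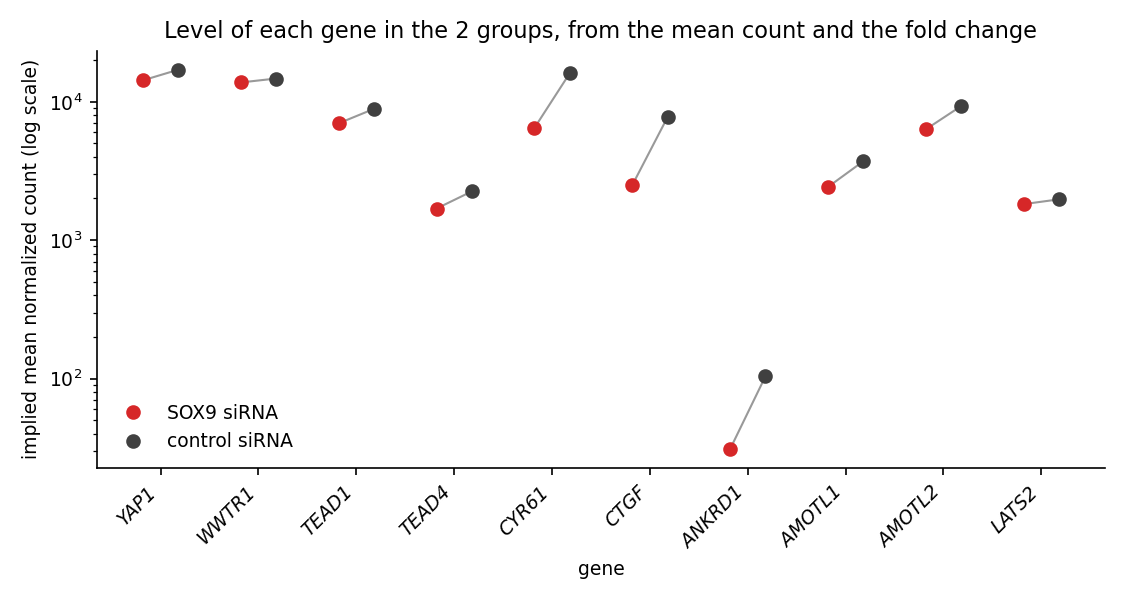
Implied mean normalized count of each gene in SOX9 siRNA cells (red) and control siRNA cells (grey), on a log axis, with a line joining the 2 groups. Counts are not divided by transcript length, so only the 2 points of a gene can be compared. The lines of CYR61, CTGF and ANKRD1 are the steepest of the 10.

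The bases before the transcription start are shown for CTGF, ANKRD1 and AMOTL2, the target genes that held the TEAD motif GGAATG before the start in a RefSeq window, because TEAD factors bind this motif: CTGF and ANKRD1 had the lowest point estimates of the 10, and AMOTL2 is a target that also restrains YAP. Sequences are 250 bases before the start, 5′ to 3′ on the gene's strand, from RefSeq on build GRCh38.p14, and the capitals mark GGAATG or, on the opposite strand, CATTCC. RefSeq windows of 250 bases before to 50 bases after a start were matched for 7 of the 10 genes. CYR61, TEAD1 and TEAD4 had no window and were not searched, so nothing is given here on the motifs of the 1 called gene. All 3 genes shown lie on the minus strand, at chr6:131951373-131951622 for CTGF, chr10:90921088-90921337 for ANKRD1 and chr3:134374448-134374697 for AMOTL2.
CTGF: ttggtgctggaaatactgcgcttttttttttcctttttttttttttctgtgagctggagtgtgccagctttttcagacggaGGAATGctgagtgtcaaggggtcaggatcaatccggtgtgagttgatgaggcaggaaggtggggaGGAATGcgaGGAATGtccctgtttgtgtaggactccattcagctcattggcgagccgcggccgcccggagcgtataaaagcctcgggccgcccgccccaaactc
ANKRD1: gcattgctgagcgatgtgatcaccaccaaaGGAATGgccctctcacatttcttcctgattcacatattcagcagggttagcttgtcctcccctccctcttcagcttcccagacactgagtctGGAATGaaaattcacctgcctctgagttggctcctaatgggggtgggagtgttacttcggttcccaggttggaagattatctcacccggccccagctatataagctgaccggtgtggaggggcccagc
AMOTL2: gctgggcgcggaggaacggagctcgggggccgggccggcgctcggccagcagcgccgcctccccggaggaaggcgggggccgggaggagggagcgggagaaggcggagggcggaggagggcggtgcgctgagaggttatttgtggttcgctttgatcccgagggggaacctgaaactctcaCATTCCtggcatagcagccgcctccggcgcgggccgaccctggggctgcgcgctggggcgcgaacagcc

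The CTGF window held 3 matches, with first bases at -169, -104 and -95 counted from the start. Of all 35116 RefSeq windows searched on both strands, 45 held 3 or more matches, which is 0.128%. ANKRD1 held 2, at -220 and -128, and 1.37% of windows held 2 or more. AMOTL2 has 2 RefSeq starts, and the window of the second held 1 match on the opposite strand, at -69. YAP1 also held 1, at -162, and LATS2 1 just after its start, at 10. AMOTL1 and WWTR1 held 0. At least 1 match was found in 5 of the 7 genes, beside 16.7% of 27305 genes and 14.0% of windows.

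The longer TEAD motif GGAATGT, which contains the shorter one, was found in 3 of the 7 genes, CTGF, YAP1 and AMOTL2, beside 4.25% of genes and 3.46% of windows. The AP-1 motif TGANTCA was in 1, ANKRD1 at -195, beside 9.37% of genes and 7.71% of windows. A SOX motif, ACAAAG or AACAAT, was in WWTR1, AMOTL1 and LATS2, beside 27.8% of genes and 23.9% of windows, and not in the windows of CTGF, ANKRD1, AMOTL2 or YAP1. No motif here overlapped another apart from the longer TEAD motif. A match is a string of letters and not a measured site.

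AMOTL1 and AMOTL2 encode angiomotins, membrane scaffolds that hold YAP at junctions and actin. AMOTL1 had an implied level of 2423 normalized counts in SOX9 siRNA cells and 3714 in control siRNA cells. In the authors' deposited table AMOTL1 had a log2 fold change of -0.62 with a standard error of 0.25 and a DESeq2 adjusted p of 0.224. AMOTL2, itself a YAP target, had 6322 and 9304 in SOX9 siRNA and control siRNA cells. Its log2 fold change in the authors' deposited table was -0.56 with a standard error of 0.35 and a DESeq2 adjusted p of 0.592. The paralogues thus had near-equal point estimates, 65.2% and 68.0% of control, and AMOTL1 alone passed an unadjusted p of 0.05. Their difference was not tested.

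LATS2, the kinase that phosphorylates YAP and is also a YAP target, was not called, and after WWTR1 its log2 fold change was the nearest to 0 of the 10. Its implied level was 1821 normalized counts in SOX9 siRNA cells and 1972 in control siRNA cells. In the authors' deposited table LATS2 had a log2 fold change of -0.11 with a standard error of 0.35 and a DESeq2 adjusted p of 0.971. Its paralogue LATS1 was not called, and the authors' deposited table gives it 0.14 as log2 fold change. The interval of LATS2 was wide, from 57.1% to 149% of control.

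**Figure D3:**
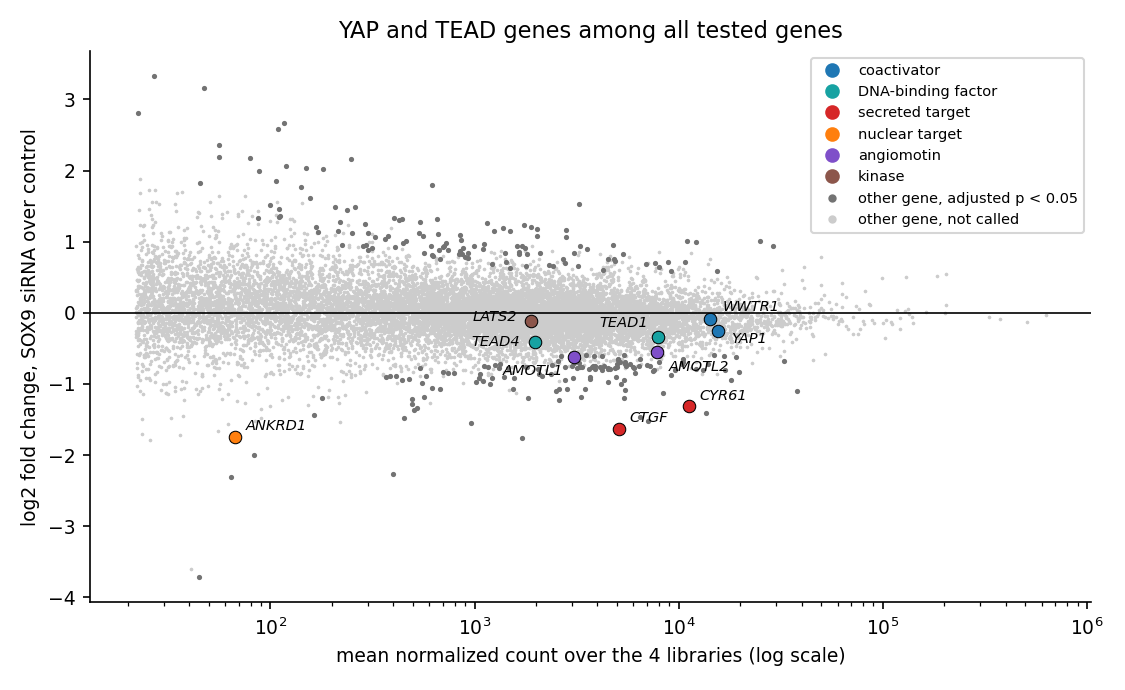
Log2 fold change of SOX9 siRNA over control siRNA against the mean normalized count (log axis) for the 14063 tested genes, with the 10 genes as large points coloured by role. CTGF at -1.63 and CYR61 at -1.31 lie at the lower edge of the cloud for their mean counts, and the coactivators and TEAD1 lie inside it.

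By role, the 4 coactivators and TEAD factors had a median log2 fold change of -0.30, the 3 targets CYR61, CTGF and ANKRD1 had -1.63, and AMOTL1, AMOTL2 and LATS2 had -0.56. The mean count of 6 of the 10 lay among the 3516 highest of tested genes, whose median log2 fold change was -0.07. Of the 9 genes not called, 5 had an interval that stayed above 50% of control, YAP1, WWTR1, TEAD1, TEAD4 and LATS2. The other 4, CTGF, ANKRD1, AMOTL1 and AMOTL2, had intervals that included a halving.

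Precision differed among the 10 genes. Counting error made up 10.4% of the squared standard error for ANKRD1 and at most 1.70% for the other 9, and the rest was the spread between libraries of a group that the authors' model assigns to the gene. DESeq2 draws such estimates toward a trend over all genes, and with no values per library the spread of these libraries themselves was not measured. Expressed as a coefficient of variation, the modelled spread was 52.3% for CTGF and 42.5% for ANKRD1. It was 19.5% for CYR61, 24.0% for AMOTL2 and 24.5% for LATS2, and between 12.6% and 17.3% for YAP1, WWTR1, TEAD1, TEAD4 and AMOTL1. All 10 had a larger standard error than the median of the 1000 genes nearest in mean count. CYR61, CTGF, ANKRD1, AMOTL2 and LATS2 were among the 5% with the largest, and for AMOTL2 and for LATS2, 7 of those 1000 genes had a larger one.

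**Figure D4:**
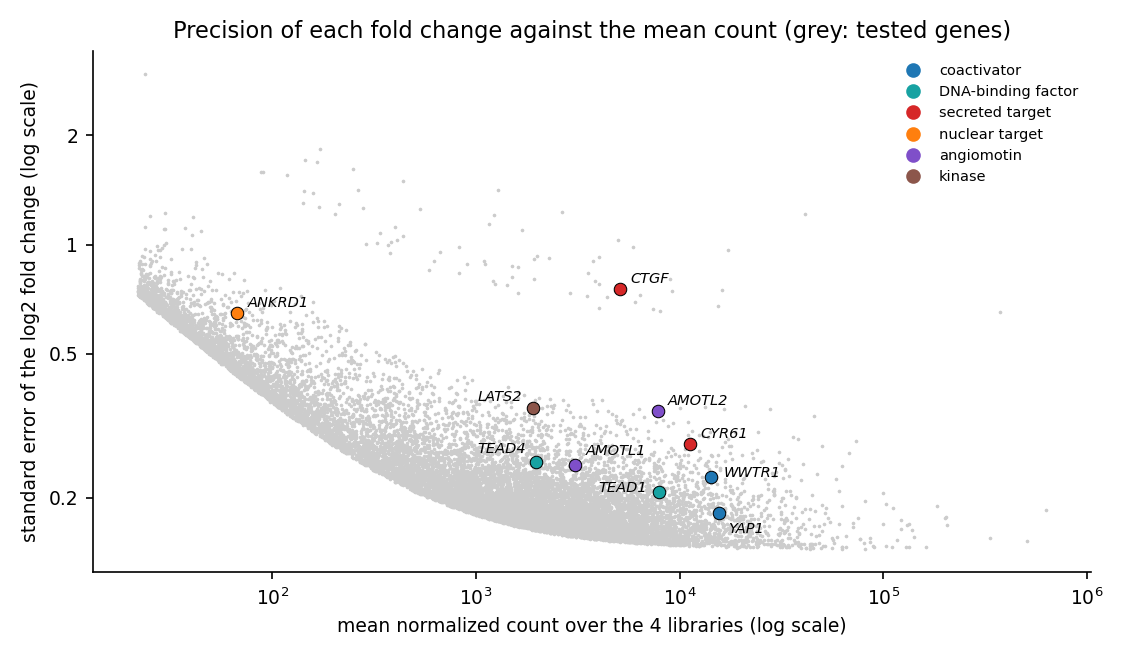
Standard error of the log2 fold change against the mean normalized count, both on log axes, for all tested genes (grey) and the 10 genes (coloured by role). CTGF stands at 0.75, in a sparse band above the cloud, and YAP1 at 0.18 has the smallest standard error of the 10.

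The wider YAP and TAZ target signature, a list of 22 genes used in human tumours that includes 5 of the 10, was read beside them. Of its 21 tested genes, 1 was called lower (CYR61), 0 were called higher and 20 were not called, beside 0.939% lower and 0.868% higher of all tested genes. The median log2 fold change of the 21 was -0.22. Without the 5 shared genes, 0 of 16 were called by DESeq2, 4 of 16 were lower and 0 higher at an unadjusted p under 0.05, 9 of 16 were negative and the median was -0.16. Of all tested genes, 6.15% were lower and 4.98% higher at that p, 52.1% were negative and the median was -0.02. CRIM1, a transmembrane protein that binds bone morphogenetic proteins, is listed in the authors' deposited table with -0.53 as log2 fold change and 0.329 as DESeq2 adjusted p. MYOF, a membrane repair protein, had the highest mean count of the list after CRIM1, and the authors' deposited table gives it 0.12 as log2 fold change. FOXF2, a forkhead factor, had the highest value among the tested genes of the list, and the authors' deposited table gives it 0.56 as log2 fold change and 0.554 as DESeq2 adjusted p.

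The CCN family holds 6 genes, and its point estimates lay on both sides of 0. Differences among its members were not tested. Besides CYR61 and CTGF, the tested members were WISP2 and WISP3. The authors' deposited table gives WISP2 0.06 and WISP3 0.66 as log2 fold changes, and 0.984 and 0.668 as DESeq2 adjusted p-values. NOV and WISP1 had mean normalized counts of 2.93 and 10.5 in the authors' deposited table and were not tested. Thus 1 of 4 tested members was called lower (CYR61) and 0 were called higher, beside 0.939% and 0.868% of all tested genes. At an unadjusted p under 0.05, 2 of the 4 were lower, CYR61 and CTGF, and 0 higher, beside 6.15% and 4.98% of all tested genes.

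The Hippo kinase core, STK3, STK4, SAV1, LATS1, LATS2, MOB1A and MOB1B, had 0 of 7 genes called by DESeq2 and 0 at an unadjusted p under 0.05. Of all tested genes, 1.81% were called, and 6.15% were lower and 4.98% higher at that unadjusted p. The 0 of 7 is given beside these shares as a description. Its log2 fold changes ran from -0.15 for MOB1A, the coactivator of LATS, to 0.28 for SAV1, the scaffold of the STK kinases, in the authors' deposited table. STK4, also called MST1, had -0.08 in the authors' deposited table. Among coactivators, TEAD factors and VGLL cofactors, 7 of 10 listed genes were tested. Of these 7, 0 were called by DESeq2, also 0 at an unadjusted p under 0.05, beside the same shares of all tested genes. VGLL4, which competes with YAP for TEAD, is listed in the authors' deposited table with 0.24 as log2 fold change and 0.656 as DESeq2 adjusted p.

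Of 29 upstream genes, 1 was called higher and 0 lower, beside 0.868% and 0.939% of all tested genes, and the median log2 fold change was -0.21. At an unadjusted p under 0.05, 4 of the 29 were lower (AMOTL1, WWC2, WTIP and RASSF1) and 1 was higher (STRN), beside 6.15% and 4.98% of all tested genes. Without AMOTL1 and AMOTL2, which are among the 10 genes, the median of the other 27 was -0.13, and 3 were lower at that unadjusted p. STRN, striatin, a scaffold of the phosphatase complex that acts on the STK kinases, rose 1.58-fold (95% interval 1.21 to 2.07). Its log2 fold change in the authors' deposited table was 0.66 with a standard error of 0.20 and a DESeq2 adjusted p of 0.0499, just inside the threshold. The call ended when p-values were adjusted over every gene, at 0.0701, and with an empirical null, at 0.179. NF2, the Merlin protein that activates the pathway, is listed in the authors' deposited table with -0.39 as log2 fold change and 0.475 as DESeq2 adjusted p. WWC2, a KIBRA relative, had -0.46 and 0.228, PTPN14, a phosphatase that binds YAP, -0.22 and 0.863, and the kinase MAP4K3 0.35 and 0.627, as log2 fold change and DESeq2 adjusted p in the authors' deposited table.

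CYR61 and CTGF can also be driven by SRF with its MRTF cofactors, through actin. In a list of 22 such genes, mostly of the cytoskeleton, 0 of 21 tested genes were called by DESeq2, and at an unadjusted p under 0.05, 2 were higher and 0 lower, beside 4.98% higher and 6.15% lower of all tested genes. The median log2 fold change was 0.14, and 7 of 21 were negative, beside -0.02 and 52.1% for all tested genes. TAGLN2 and TPM1, actin-binding proteins, had log2 fold changes of 0.48 and 0.46 with DESeq2 adjusted p-values of 0.166 and 0.319 in the authors' deposited table. ACTB and ACTG1, the cytoplasmic actins, had 0.00 and 0.11, and MYL9 and the cofactor MKL1 had -0.20 each, as log2 fold changes in the authors' deposited table. The list also holds the regulators SRF, MKL1 and MKL2 themselves. Any part of SRF or MRTF in the values of CYR61 and CTGF was not tested.

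**Figure D5:**
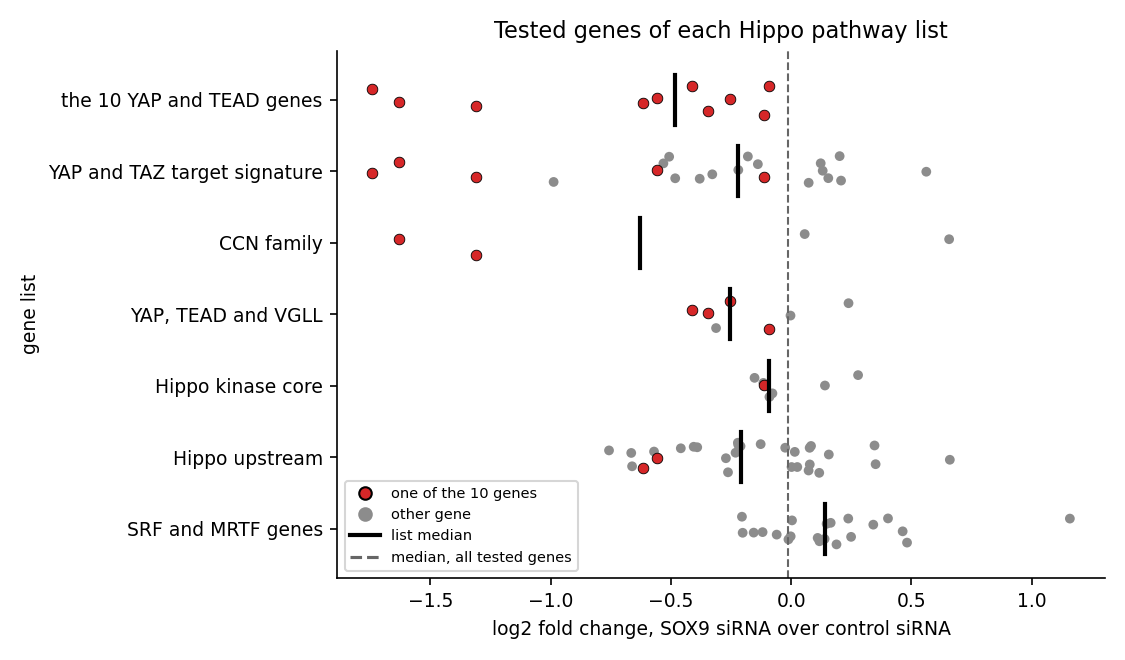
Log2 fold change of SOX9 siRNA over control siRNA for the tested genes of each list, with red points for the 10 genes, grey points for other genes, a black bar at the list median and a dashed line at the median of all tested genes. The 3 red points furthest left are ANKRD1, CTGF and CYR61, and the SRF and MRTF genes have a median of 0.14.

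The genes nearest to CYR61 in the order of the Wald statistic, over this 1 comparison of 4 libraries, were HIATL1 and TP53BP2 just below it and SLC7A1 and SPCS3 just above. Their Wald statistics in the authors' deposited table were -4.69, -4.67, -4.59 and -4.57, against -4.65 for CYR61. Being chosen by that statistic, all 4 had to have a negative fold change. Their levels were 52.0%, 52.2%, 47.4% and 50.9% of control for HIATL1, TP53BP2, SLC7A1 and SPCS3, from the authors' deposited table. SLC7A1 carries cationic amino acids into cells and SPCS3 is a subunit of the signal peptidase. CYR61 had a lower point estimate than each of them, with a larger standard error, 0.28 against at most 0.23 in the authors' deposited table. With near-equal Wald statistics, a lower estimate and a larger standard error go together by arithmetic.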

How the data were processed

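RNA reads were processed by the authors with HISAT2 (2.0.5), featureCounts and DESeq2 (1.18.1), per the submitters' processing notes, which list hg19 and mm10 with no role. The sources used here do not say whether strand was used in counting, so genes with an overlapping or antisense partner are uncertain. The authors' signal, per the file headers, is a mean normalized count over libraries. Their deposited fold change and its standard error are log2 values, and their deposited Wald statistic is a score. The p-values and adjusted p-values are the authors' as deposited. The adjusted value is given for 14063 of 19830 genes, and the other 5767 had mean counts of 21.9 or less. Depth per library is not in this table.

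The members and gene lists were chosen with earlier results of these data known. Intervals are 1.96 standard errors each way. Group levels assume 2 libraries of equal weight: control level is 2 x mean / (1 + fold). The modelled spread between libraries is the squared standard error beyond counting error. These steps were run on simulated counts whose spread was known and used in the standard errors. That simulation could not test the spread that DESeq2 estimates. Named genes were SOX9, the 10 genes, the called, extreme and highest-count genes of each list, and the 2 neighbours of CYR61 on either side. Any other gene named, such as TEAD3, the untested CCN genes, the cell type markers and those under other observations, was chosen after its values were seen. Scripts used Python 3.11.15 with pandas 2.3.3 and scipy 1.17.1. Alternatives were the genes adjusted over, centring, an empirical null, a test against a 1.5-fold change and other thresholds. Protein sequences were not used here. Older symbols were matched to RefSeq promoters through the RefSeq gene table of GRCh38.p14.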

Additional observations from a re-analysis of the deposited data

How the results depend on the processing

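CYR61 stayed the 1 called gene of the 10 under 7 of 8 alternatives, and its log2 fold change lay between -1.31 and -1.24. Tested against a 1.5-fold change, 0 of the 10 genes, 0 of the target signature and 0 of the CCN family were called, with an adjusted p of 1 for CYR61, while 0 of all tested genes were called lower and 3 higher. The called upstream gene STRN was lost, leaving 0, under that test, under adjustment over every gene, under the empirical null and at an adjusted p under 0.01. SOX9 passed at an adjusted p under 0.1. No other gene of the 10 passed under any alternative, and none of the 10 changed sign, WWTR1 coming nearest to 0 at -0.02 when centred by mean count. A mean count of at least 100 leaves ANKRD1 out. Over all genes, 132 were called lower and 122 higher, against 41 and 53 with the empirical null, 49 and 60 at the threshold of 0.01, and 99 and 118 when centred by mean count. With the longer motif, 3 of the 7 genes with a window held a match, in place of 5. No paired analysis was possible because the table has no values per library, and leaving out replicates or another count model was not run for the same reason. Modelled spread between libraries made up more of the squared standard error than counting in each of the 10.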

Other observations

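Some genes of the target signature, most of them shared with the 10, had a large standard error for their mean count. Of its 21 tested genes, 8 were among the 5% with the largest standard error of the 1000 genes nearest in mean count. Of the 21, 6 were among the top 1%. Of all 14063 tested genes, 5.02% were among that 5%, and 141 genes were among the top 1%. Besides the 5 genes that the signature shares with the 10, the 8 were NT5E, an ecto-nucleotidase, NUAK2, a kinase of the AMPK family, and GADD45A, a stress-response gene. NT5E had a log2 fold change of -0.51 with a standard error of 0.69 in the authors' deposited table, and a modelled spread between libraries of 48.2%. NUAK2 had -0.99 and 0.43, and GADD45A 0.20 and 0.37, as log2 fold change and standard error in the authors' deposited table. In the SRF and MRTF list the count was 2 of 21, in the kinase core 1 of 7 (LATS2), among coactivators, TEAD and VGLL genes 0 of 7, and among upstream genes 6 of 29. The cause was not tested.

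Of the 5 upstream genes at an unadjusted p under 0.05, those not yet given with values are RASSF1 and WTIP. RASSF1, a tumour suppressor that binds the STK kinases, had a log2 fold change of -0.76 and WTIP, a LIM protein, -0.66 in the authors' deposited table. Their DESeq2 adjusted p-values there, in the authors' deposited table, were 0.406 and 0.253. AXL, a receptor tyrosine kinase of the signature, had a log2 fold change of -0.33 as listed in the authors' deposited table, where its DESeq2 adjusted p is 0.405.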
